A study of Mus musculus with 6 samples.

Results

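The genes described here encode potassium channels and their accessory subunits. They were taken as every probe set, a group of short oligonucleotides for 1 transcript, whose array annotation names exactly 1 gene with a symbol starting with Kcn. The rule gave 51 of 12488 probe sets, which stand for 42 genes. RNA of adrenal glands from 2 inbred mouse strains, hypertensive BPH (Blood Pressure High) and hypotensive BPL (Blood Pressure Low), was read on 6 Affymetrix MG_U74Av2 arrays, 3 for each strain. Neither strain is a control for the other, no treatment or engineered allele is given for either, and age and sex are not given in the sources used here. Nothing says that the 3 arrays of a strain came from separate animals or pools, so p-values measure only the spread between these arrays.

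Potassium channels let potassium leave the cell and so hold or restore a negative membrane voltage. In the zona glomerulosa of the adrenal cortex, background potassium channels keep the cell so negative that a small rise in blood potassium or angiotensin II depolarises it, opens calcium channels and releases aldosterone. In the chromaffin cells of the medulla, voltage-gated and calcium-activated potassium channels end the action potentials that release catecholamines. The pore-forming genes fall into 4 classes: two-pore domain (Kcnk), inward rectifier (Kcnj), voltage-gated (Kcna, Kcnc, Kcnd, Kcnh, Kcnq and Kcns) and calcium-activated (Kcnma and Kcnn, with the related Kcnu1). Accessory subunits (Kcnab, Kcne and Kcnmb) change the gating or surface level of the pores.

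All 6 arrays had the gene activity of adrenal tissue: the cortex gene Star, the cholesterol carrier of steroid synthesis, lay at its brighter probe set between 86782 and 100622 intensity units, and Th, the first enzyme of catecholamine synthesis, between 9236 and 25099. Marker lists of other tissues differed between arrays. The summed intensity of 23 skeletal muscle probe sets was 210039 on BPH 1 and 226997 on BPL 2 and between 17548 and 34579 on the other 4 arrays. The sum of 17 brown fat and adipocyte probe sets ran from 315894 to 363006 in BPH and from 432148 to 968984 in BPL, where BPL 2 was highest. The sum of 15 chromaffin probe sets ran from 298838 to 351425 in BPH and was 227981, 155110 and 314090 on BPL 1, 2 and 3. None of 7 kidney probe sets was above background on the rule given next. In RNA of a tissue, fewer cells of a type and less RNA per cell cannot be told apart.

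The deposited table holds no detection calls, so background was set from the table itself. A probe set was called above background when its mean over the 6 arrays reached the 40th percentile of all values (an intensity of 668.1) and every array reached the 20th percentile (201.3, used as the floor). By that rule 16 of the 51 potassium channel probe sets, or 31.4%, were above background, for 14 genes, against 59.9% of all probe sets. As a reference, 59 probe sets of genes of retina, lens, sperm, milk, exocrine pancreas, tooth, cochlea and pituitary, tissues not part of the adrenal, were put through the same rule, and 19 of them, or 32.2%, passed. The share of potassium channel probe sets above background was therefore no higher than that of these reference genes, and signal above the 40th percentile alone does not show that a channel is transcribed in the gland. Against the 95th percentile of the reference means, an intensity of 3461, 1 potassium channel probe set stood higher, that of Kcnk3. Kcnk1 (mean 3397) and Kcnh2 (3345) lay close under that line. The highest reference mean was 9524, above the Kcnk3 mean of 7160. Just inside the rule lay Kcnq1 at its dimmer probe set (mean 732) and Kcnn1 (754), and just outside lay Kcnc1 (660.3) and Kcnab3 (607). All 6 arrays of 8 further probe sets lay under the floor.

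**Figure D1:**
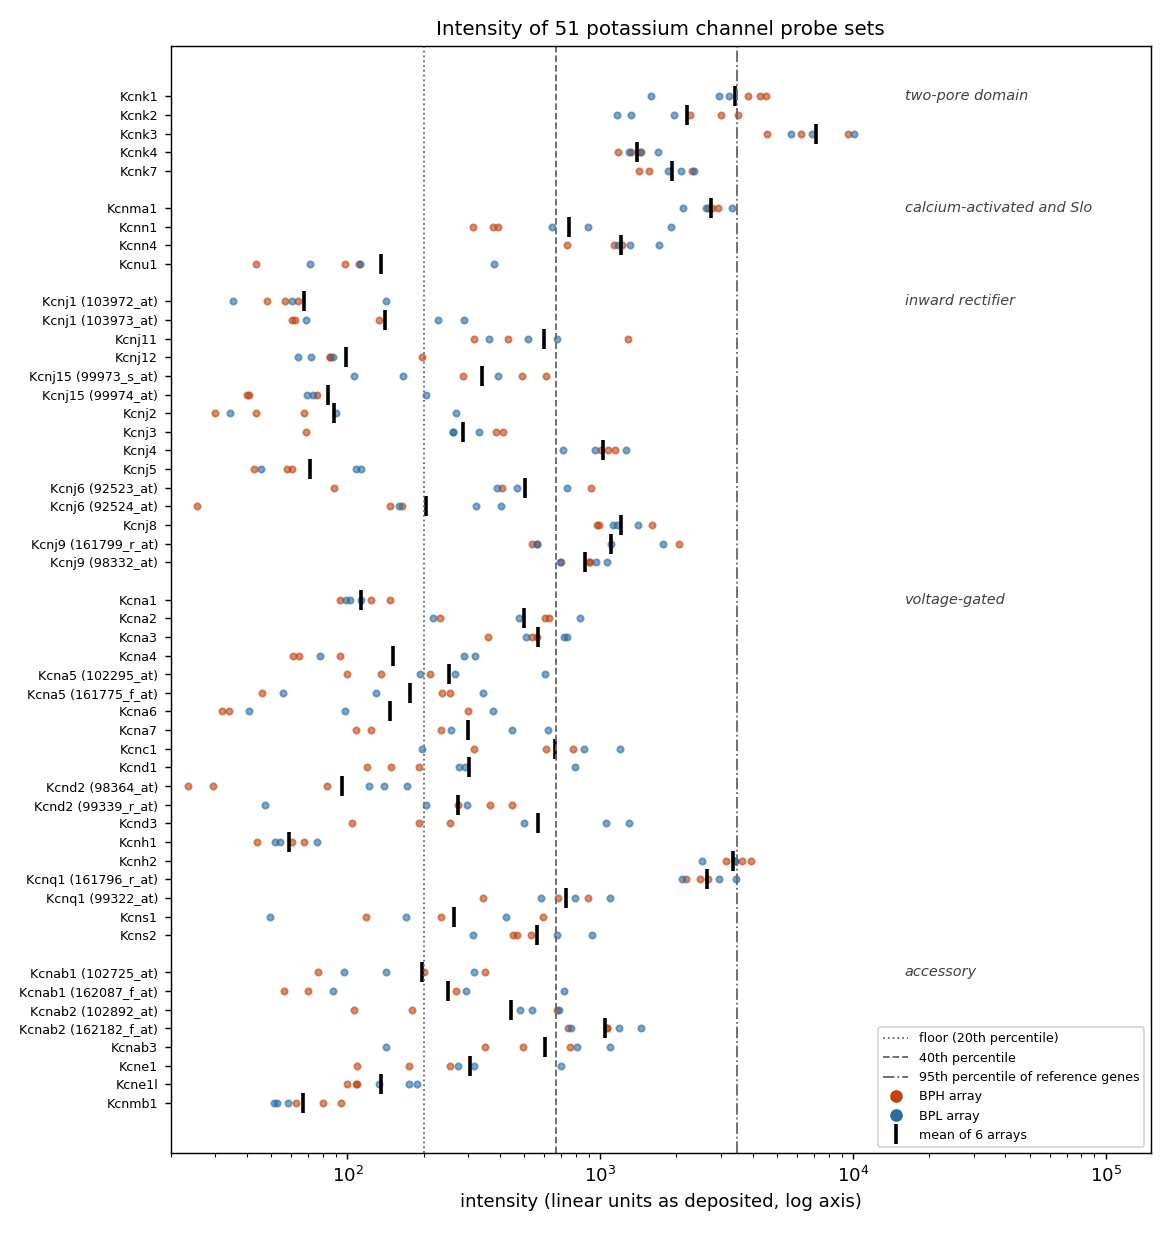
Intensity of each of the 51 potassium channel probe sets (rows, by class) on a log axis; points are the 3 BPH and 3 BPL arrays and the black tick is the mean of the 6 arrays, with the floor, the 40th percentile and the 95th percentile of the reference genes as vertical lines. All 5 two-pore domain probe sets lie right of the 40th percentile and all 8 probe sets of the Kv1 family left of it; only the mean of Kcnk3 lies right of the reference line.

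The classes differed in how many members were above background. All 5 two-pore domain probe sets passed (Kcnk1, Kcnk2, Kcnk3, Kcnk4 and Kcnk7), as did 3 of 4 calcium-activated and related ones (Kcnma1, Kcnn1 and Kcnn4, not the sperm channel gene Kcnu1). Of 15 inward rectifier probe sets 4 passed, for Kcnj4, Kcnj8 and both of Kcnj9. Of 19 voltage-gated probe sets 3 passed, for Kcnh2 and both of Kcnq1. None of the 8 probe sets of the Kv1 family (Kcna) passed, nor any of the 4 of the Kv4 family (Kcnd). Of 8 accessory probe sets 1 passed, for Kcnab2. These counts describe probe sets, which differ in how well they bind, so they do not rank the classes by transcript number.

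None of the 16 tested potassium channel probe sets was called different between BPH and BPL. The call was an adjusted p under 0.05 in limma, a linear model fitted to all 7510 probe sets above the 40th percentile, with Benjamini-Hochberg adjustment over all of them. In that fit 189 probe sets, 2.52% of those tested, were called, 1.54% higher and 0.972% lower in BPH. At an unadjusted p under 0.05 there were 3 potassium channel probe sets, 18.8% of the 16, against 19.1% of all probe sets tested, so their share was near the background. The 3 were Kcnk2 and Kcnk1, both higher in BPH, and Kcnn1, lower in BPH, whose mean reached the 40th percentile only through BPL 1 and BPL 3. These were also the 3 of 16 whose BPH and BPL arrays did not overlap, which was the case for 26.2% of all tested probe sets. Of the 16 differences 11 were below 0, or 68.8%, against 46.8% of all probe sets tested. The median difference was -0.17 on the log2 scale (BPH minus BPL), beside 0.02 over all probe sets tested. With the fluidics station as a block the median was -0.03. BPH 1 and BPH 2 ran on a station without BPL arrays, so that value rests on BPH 3 against the 3 BPL arrays. Over the 7 members above the 60th percentile the median was 0.07. The numbers called over all probe sets without BPH 1, 2 or 3 were 85, 42 and 50. Without BPL 1, 2 or 3 they were 90, 154 and 350.

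**Figure D2:**
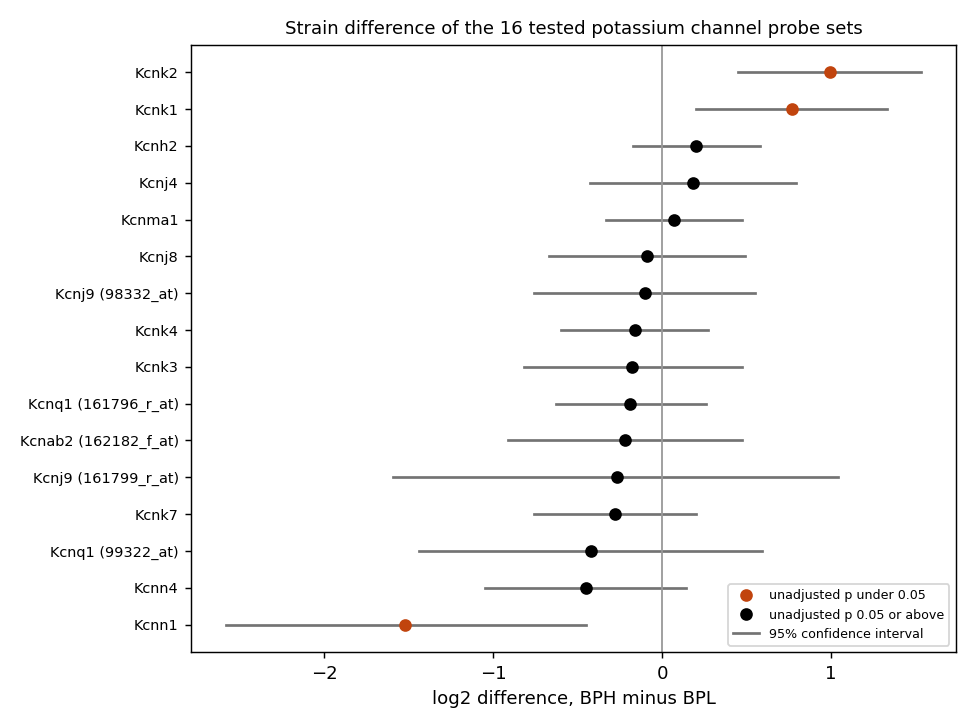
Log2 difference (BPH minus BPL, horizontal axis) of the 16 tested potassium channel probe sets with the 95% confidence interval from the limma fit. The intervals of Kcnk2 (0.45 to 1.53), Kcnk1 (0.20 to 1.33) and Kcnn1 (-2.58 to -0.45) lie to one side of 0 and the other 13 cross it; none was called after adjustment.

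Among the two-pore domain channels, which carry background leak current, Kcnk2 had the smallest p of all tested members. Kcnk2 encodes TREK-1, a leak channel opened by membrane stretch and lipids, and closed by hormones that raise cyclic AMP; its bovine form is a main potassium channel of cortisol-secreting cells. Its intensity was 3513, 2268 and 2989 on BPH 1, 2 and 3 and 1327, 1161 and 1961 on BPL 1, 2 and 3. Every BPH array lay above every BPL array, with the smallest gap between BPH 2 and BPL 3. BPH averaged 2923 ± 625.2 and BPL 1483 ± 422 (SD, n = 3), which differ by more than either SD. The log2 difference was 0.99 (SE 0.24, 1.99-fold), and the limma adjusted p = 0.0711 missed the threshold. Without BPL 3 the difference was 1.21 and was called (limma adjusted p = 0.025). Across all alternatives its adjusted p ran from 0.025 to 0.533. Within fluidics station 1, which holds BPH 3 and the 3 BPL arrays, it was 1.05.

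Kcnk1 encodes TWIK-1, a weakly conducting two-pore channel found in many epithelia. Its intensity was 4509, 3842 and 4284 on the BPH arrays and 2934, 1586 and 3228 on the BPL arrays, again without overlap and with BPL 2 farthest down. BPH averaged 4212 ± 339.2 and BPL 2583 ± 875.6 (SD, n = 3). The log2 difference of 0.77 (SE 0.25, 1.70-fold) had a limma adjusted p = 0.146. It was 0.45 without BPL 2, 0.40 without the 2 arrays highest in muscle markers (BPH 1 and BPL 2), and 0.80 within station 1. For Kcnk2 the value without those 2 arrays was 0.69.

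Both probe sets were lowest on BPL 2 and, within BPL, highest on BPL 3, and so was the chromaffin marker list. The mean log2 intensity of that list was 12.82, 12.74 and 12.87 on the BPH arrays and 12.10, 11.83 and 12.85 on the BPL arrays. Of its 13 tested probe sets 12 lay higher in BPH (92.3%, beside 53.2% of all probe sets tested), 1 of them called, beside 1.54% called higher in all. The median was 0.65. The brown fat and adipocyte list ran the other way and further: 13 of its 14 tested probe sets lay lower in BPH (92.9%, beside 46.8%), 3 of them called, beside 0.972% called lower in all, and the median was -1.01. It had a mean of 12.61 to 12.96 in BPH and 13.08 to 14.10 in BPL, and BPL 2 highest. The adrenal cortex list had the same order within BPL over a smaller range. Its mean was 13.28, 13.37 and 13.27 on the BPH arrays and 13.22, 13.10 and 13.34 on the BPL arrays. Of its 14 tested probe sets 10 lay higher in BPH (71.4%, beside 53.2%), none of them called, and the median was 0.17. The part of these cell types in the Kcnk1 and Kcnk2 differences was not tested.

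**Figure D3:**
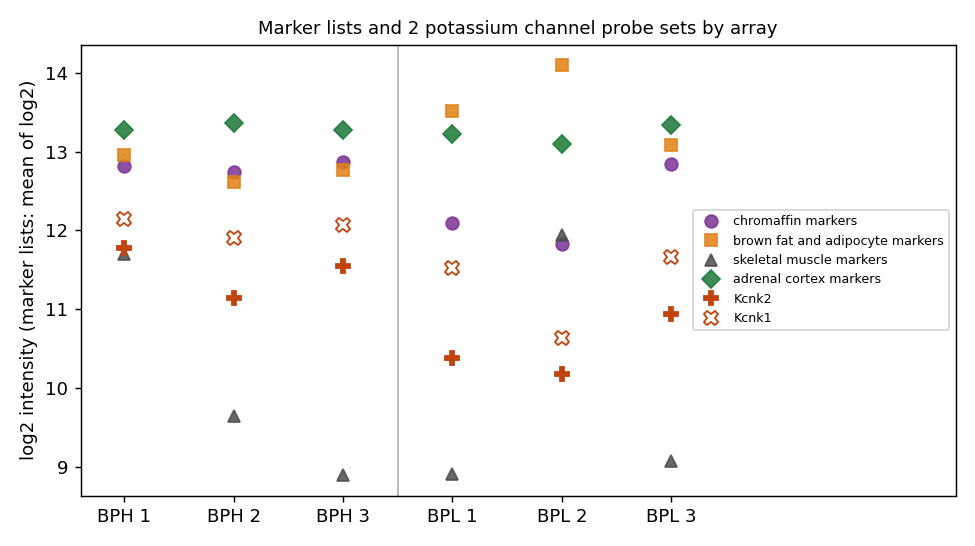
Log2 intensity of the Kcnk2 and Kcnk1 probe sets and the mean log2 intensity of 4 marker lists on each of the 6 arrays (horizontal axis, BPH left of the line). The chromaffin mean, the adrenal cortex mean and both channels are lowest on BPL 2, where the brown fat and adipocyte mean is highest (14.10). The muscle mean is highest on BPL 2 (11.94) and BPH 1 (11.70).

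The other 3 two-pore channels overlapped between the strains. Kcnk3 encodes TASK-1, an acid-sensitive leak channel that sets the resting voltage of glomerulosa cells in rodents. Its intensity was 9569, 4561 and 6227 on the BPH arrays and 6846, 5673 and 10081 on the BPL arrays, and the highest and the lowest BPH array lay on either side of 2 of the 3 BPL arrays. The log2 difference was -0.18 (SE 0.28), with an interval from -0.82 to 0.47. That interval leaves room for a change of either sign, and the value turned to 0.08 without BPH 2 and to 0.06 without BPL 3. Without the 2 arrays highest in muscle markers the Kcnk3 difference was -0.64. Kcnk7, for a two-pore subunit with no known current of its own, had 1418, 1554 and 2305 in BPH and 2344, 2087 and 1854 in BPL. Its log2 difference was -0.28 (SE 0.21, interval -0.76 to 0.20), and 0.14 within station 1. Kcnk4, for the stretch-sensitive channel TRAAK, had 1177, 1324 and 1450.1 in BPH and 1697, 1434 and 1299 in BPL, a log2 difference of -0.16 (SE 0.19, interval -0.60 to 0.27).

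Among the 16 tested probe sets, the calcium-activated class held the difference farthest from 0, that of Kcnn1, and the one nearest to it, that of Kcnma1. Kcnn1 encodes SK1, a small-conductance channel opened by calmodulin-bound calcium, which shapes the pause after an action potential. Its intensity was 378, 313 and 393 on the BPH arrays and 890.1, 641 and 1906 on the BPL arrays. The strains did not overlap, but BPL 3 alone lay at more than the sum of BPL 1 and BPL 2. BPH averaged 361 ± 42.2 and BPL 1146 ± 669.9 (SD, n = 3). The log2 difference of -1.52 (SE 0.47) had a limma adjusted p = 0.127. All 3 BPH arrays and BPL 2 lay under the 40th percentile, so the probe set entered the test only through BPL 1 and BPL 3. Without BPL 3 it did not enter the test at all. Its difference was -1.39 within station 1 and -1.89 without BPH 1 and BPL 2. The sum of 10 Schwann cell probe sets was also lower in BPH (11048 to 12777) than in BPL (14704 to 17191) and highest on BPL 3. Of the 6 tested, 4 lay lower in BPH (66.7%, beside 46.8% of all probe sets tested), none of them called. Among those tested only Pmp22 was highest on BPL 3, at 8277 beside 5831 and 5548 on BPL 1 and 2. The part of Schwann cells in the Kcnn1 difference was not tested.

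Kcnn4 encodes the intermediate-conductance channel of red and white blood cells. It had 739.9, 1218 and 1128 in BPH and 1702, 1314 and 1171 in BPL, which overlap. The log2 difference was -0.45 (SE 0.26, interval -1.05 to 0.14). Kcnma1 encodes the pore of the big-conductance channel BK, which ends chromaffin action potentials. It had 2670.1, 2933 and 2755 in BPH and 3320 (3319.9), 2132 and 2623 in BPL, with the BPH arrays inside the BPL range. Its log2 difference was 0.07 (SE 0.18, interval -0.33 to 0.47). Kcnmb1, the smooth muscle beta subunit of the same channel, lay under the floor on all arrays, between 51.1 and 94.1. Its BPH arrays were all above its BPL arrays, at signals where order carries no information. Kcnu1 reached 381 on BPL 1 and at most 112.4 elsewhere.

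**Figure D4:**
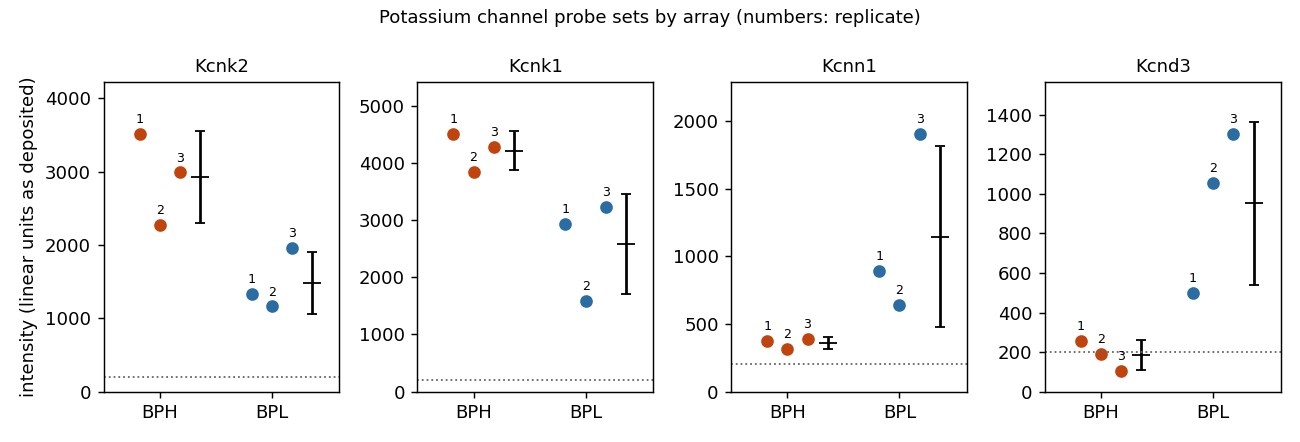
Intensity of Kcnk2, Kcnk1, Kcnn1 and Kcnd3 on each array (points, numbered by replicate) by strain, with the mean and SD of the 3 arrays beside them and the floor of 201.3 as a dotted line. BPH lies above BPL for Kcnk2 and Kcnk1 and below it for Kcnn1 and Kcnd3, where 2 BPH arrays of Kcnd3 are under the floor.

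Of the voltage-gated channels above background, neither gene separated the strains. Kcnh2 encodes ERG, the channel whose loss lengthens the QT interval in the heart. It had 3959, 3619 and 3139 in BPH and 3414, 2525 and 3413 in BPL, a log2 difference of 0.20 (SE 0.17, interval -0.17 to 0.58). Kcnq1 encodes a slowly activating channel that pairs with Kcne subunits, and has 2 probe sets. The brighter one had 2185, 2477 and 2663 in BPH and 3433, 2946 and 2104 in BPL, and the dimmer one 683, 343 and 894 against 1095, 794 and 582. Their log2 differences were -0.19 (SE 0.20) and -0.42 (SE 0.45), of the same sign and both overlapping. The dimmer one turned to 0.17 within station 1. The Kcnq1 partner Kcne1 was not above background, with 109, 175 and 254 in BPH and 317, 700.5 and 273 in BPL. Kcne1l, an X-linked relative, lay under the floor on every array.

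The remaining 16 voltage-gated probe sets were not tested. Kcnd3, for the Kv4.3 channel of fast transient currents, is singled out here after its values were seen. It had 255, 192 and 104 in BPH and 499, 1056 and 1304 in BPL, with no overlap, and means of 184 ± 75.8 and 953 ± 412.2 (SD, n = 3). In a fit without the filter on low values, its log2 difference was -2.02 (SE 0.40, limma adjusted p = 0.172). The floor makes that difference smaller, since BPH 2 and BPH 3 lay under it. In that fit none of the 51 potassium channel probe sets was called, beside 0.419% of all 12422, and 4 had an unadjusted p under 0.05, beside 13.6% of all. The 4 were Kcnd3, Kcnk2, Kcnn1 and Kcna7.

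The other Kv4 genes were dimmer. Kcnd1 had 119.7, 191.5 and 149 in BPH and 292, 277 and 792 (792.5) in BPL. The 2 probe sets of Kcnd2 went opposite ways, with 83.3, 23.5 and 29.4 against 172, 122 and 139 at one, all under the floor, and 445, 368 and 273 against 298, 47.3 and 204 at the other. Over the 35 potassium channel probe sets left out of the test, the arrays of the strains did not overlap for 7, or 20%, beside 13.8% of all probe sets left out. Of the 7, Kcnmb1 was higher in BPH. The other 6 were lower, where 9.71% of all left-out probe sets did the same: Kcna7, Kcnd1, Kcnd2 at one probe set, Kcnd3, Kcne1 and Kcne1l. As for Kcnmb1, all arrays of Kcne1l and of that Kcnd2 probe set lay under the floor, where order carries no information. Of the 27 left-out members with an array at or above the floor 4 did not overlap, all lower in BPH, or 14.8%, beside 13.9% of all such probe sets in either direction and 9.5% lower. Kcna7, Kcnd1 and Kcne1l, like Kcnd3, are named because of these values. Over all 51 members 10 did not overlap, 19.6%, beside 21.3% of all probe sets, so the share over the whole family was near the background. They split into 7 lower and 3 higher in BPH, beside 10.8% and 10.5% of all probe sets.

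In the Kv1 family, Kcna4, an A-type channel, had 93.4, 61.0 and 64.3 in BPH and 78.1, 289.8 and 318.7 in BPL, mostly under the floor. The 2 probe sets of Kcna5 had 99.6, 135.5 and 212 against 267, 604 and 194, and 45.8, 236 and 254 against 55.5, 129 and 344. One was highest on BPL 2 and the other on BPL 3. Means of the Kv1 probe sets ran from 113.1 for Kcna1 to 568.8 for Kcna3. Kcna7 had 108, 123.7 and 234 in BPH and 256 (256.5), 622 and 447 in BPL. The means of Kcna2, Kcna6 and Kcna7 lay between those of Kcna1 and Kcna3, as Kcns1 (265) and Kcns2 (562) did. Kcnh1 had a mean of 58.8.

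Inward rectifiers pass potassium more easily into the cell than out and so fix the resting voltage. Kcnj5 encodes GIRK4, the channel most often mutated in human aldosterone-producing adenomas. Its probe set gave 57.9, 42.6 and 60.1 in BPH and 112.8, 108.2 and 45.3 in BPL, all under the floor, so these arrays give no measured level for it. Kcnj8, the Kir6.1 pore of ATP-sensitive channels in vascular smooth muscle, was above background. It had 984, 1605 and 967.5 in BPH and 1165, 1121 and 1411 in BPL, a log2 difference of -0.09 (SE 0.26, interval -0.67 to 0.49). Kcnj11, the Kir6.2 pore of the same class in beta cells and muscle, was not, with 316, 431 and 1288 against 517, 674 and 363.

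Kcnj9 encodes GIRK3, a G protein-gated subunit, and has 2 probe sets. One had 899, 908 and 696 in BPH and 696, 958 and 1060 (1059.5) in BPL. The other had 563, 2055 and 539 in BPH and 1102, 1778 and 560.4 in BPL, with BPH 2 and BPL 2 far above the other arrays of their strain. The log2 differences were -0.10 (SE 0.29) and -0.27 (SE 0.58), and the second is the least precise of the 16. Kcnj4, the Kir2.3 rectifier, had 1009, 1068 and 1144 in BPH and 1265, 711 and 951 in BPL, a log2 difference of 0.18 (SE 0.27, interval -0.43 to 0.79).

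The inward rectifiers below background included 3 genes with a pair of probe sets. Those of Kcnj1, the ROMK channel of the kidney tubule, had means of 67.6 and 140.2. Those of Kcnj6 (GIRK2) had 503 and 204, and those of Kcnj15 had 342 and 83.9. Within each pair the arrays were not in the same order: Kcnj6 was highest on BPH 3 at one (922) and on BPL 3 at the other (406), and Kcnj15 on BPH 2 at one (612) and on BPL 2 at the other (204.8). By array, Kcnj1 had 56.8, 48.2 and 63.7 against 60.2, 141.5 and 35.1, and 60.3, 132.9 and 62.0 against 229, 68.8 and 288. Kcnj6 had 88.3, 409 and 922 against 469.9, 739 and 389, and 164.8, 25.3 and 147.9 against 159.7, 322 and 406. Kcnj15 had 286, 612 and 489.5 against 166, 392.5 and 105.8, and 40.8, 40 and 75.9 against 69.1, 204.8 and 73.0. Both probe sets of Kcnj1 and both of Kcnj6 had the lower mean in BPH and those of Kcnj15 had opposite directions, with overlapping arrays at all 6 and many values under the floor. Kcnj2, Kcnj3 and Kcnj12 had means of 88.8, 287 and 98.3.

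The cytoplasmic beta subunits of Kv channels were represented by Kcnab1, Kcnab2 and Kcnab3. Kcnab2 was above background at a probe set whose probes can bind several family members, with 743.9, 1059 and 1059 in BPH and 764, 1449 and 1191 in BPL. Its log2 difference was -0.22 (SE 0.30, interval -0.91 to 0.47). Its other probe set was not above background, with 179.9, 106.4 and 674 against 538 (537.6), 479 and 684. The 2 probe sets of Kcnab1 had 76.3, 351 and 201 against 318 (317.5), 96.6 and 142.6, and 69.5, 56.2 and 269 against 87.7, 294 and 716. Kcnab3 ranged from 142.3 to 1089.8, both on BPL arrays.

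Promoter sequence is given for the 3 tested members with the smallest p, Kcnk2, Kcnn1 and Kcnk1. It is reference sequence, not that of BPH or BPL, so it holds no information on the difference between the strains. The windows are those of RefSeq on GRCm38.p6, from 250 bases before to 50 bases after an annotated start, written 5′ to 3′ along the gene. For 33 of the 42 genes the table held 42 windows. Each was searched on both strands for AAGGTCA, bound by the steroid cell factor SF-1 and by Nr4a receptors, for TGACGTCA, the cyclic AMP response element, and for GGGCGG, the GC box. Capitals mark GGGCGG, the only motif of the 3 in these windows. The Kcnk2 window shown, at chr1:189343658-189343957 on the minus strand, is 1 of 4 for that gene and the only one of them with a match. The Kcnk1 window is at chr8:125994852-125995151 on the plus strand. The Kcnn1 window, at chr8:70856959-70857258 on the minus strand, is 1 of 2 for its gene and the one with matches.
Kcnk2: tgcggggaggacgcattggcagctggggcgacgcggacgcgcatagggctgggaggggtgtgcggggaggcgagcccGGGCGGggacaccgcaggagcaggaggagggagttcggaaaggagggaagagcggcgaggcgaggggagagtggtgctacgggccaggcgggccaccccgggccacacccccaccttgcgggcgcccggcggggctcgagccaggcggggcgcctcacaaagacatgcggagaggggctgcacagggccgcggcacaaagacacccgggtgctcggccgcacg
Kcnk1: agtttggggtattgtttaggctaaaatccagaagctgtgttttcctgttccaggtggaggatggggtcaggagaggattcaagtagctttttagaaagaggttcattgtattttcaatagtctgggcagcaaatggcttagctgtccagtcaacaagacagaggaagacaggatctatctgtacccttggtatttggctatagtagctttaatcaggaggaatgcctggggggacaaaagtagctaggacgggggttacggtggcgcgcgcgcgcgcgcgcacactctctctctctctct
Kcnn1: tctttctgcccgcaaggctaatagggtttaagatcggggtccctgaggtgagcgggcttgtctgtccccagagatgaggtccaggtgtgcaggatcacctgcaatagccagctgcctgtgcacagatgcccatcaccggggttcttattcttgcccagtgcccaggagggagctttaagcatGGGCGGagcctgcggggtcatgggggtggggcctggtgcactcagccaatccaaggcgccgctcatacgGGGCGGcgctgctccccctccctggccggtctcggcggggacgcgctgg
The Kcnk2 window is 74.7% G and C with 33 CG pairs, that of Kcnn1 64.3% with 16, and that of Kcnk1 49.0% with 10, most of them in a run of alternating letters at its 3′ end. Over all 42 potassium channel windows GGGCGG was found in 22, or 52.4%, beside 35.7% of all 32851 windows. AAGGTCA was found in 1, that of Kcnh1, or 2.38% beside 4.72%, and TGACGTCA in none, beside 1.79%. The median G and C share was 60.3% in the 18 windows of 12 genes above background and 60.2% in the others, beside 52.7% in all windows. This measure was thus nearly the same on both sides of the background rule. Kcnk3 and Kcnq1, also above background, had no window. In the RefSeq gene order 5 pairs of members are direct neighbours: Kcna1 with Kcna5 and with Kcna6, Kcna2 with Kcna3, Kcnj1 with Kcnj5, and Kcnj6 with Kcnj15. None of these neighbouring genes was above background.

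Genes that work with potassium channels did not pass the test either. Of 32 probe sets of channel partners (regulators, scaffolds, ATP-sensitive channel receptors and Hcn channels) 25 were tested, 8 higher and 17 lower in BPH, with none called in limma and 8 at an unadjusted p under 0.05. Those 8 are 32% of the partners tested, beside 19.1% of all probe sets tested, and the 17 are 68%, beside 46.8% lower in all. The median partner difference was -0.33. Nedd4l, the ubiquitin ligase that withdraws the epithelial sodium channel from the membrane, had at one probe set 1404, 1402 and 1726 (1725.5) in BPH and 2011, 2504 and 2282 in BPL, a log2 difference of -0.59 (SE 0.17, adjusted p = 0.105). At its other probe set the difference was -0.89 (SE 0.29, adjusted p = 0.147). Both were highest on BPL 2, as the brown fat and adipocyte list was, whose part was not tested. The pacemaker channel gene Hcn2 differed by -0.52 (SE 0.18, adjusted p = 0.17). Of 13 voltage-gated calcium channel probe sets 4 were tested, none called and 1 at an unadjusted p under 0.05. That was Cacna2d1, an accessory subunit, at 0.40 (SE 0.16, adjusted p = 0.229), while the L-type pore gene Cacna1c differed by 0.17 (SE 0.16). None of 8 voltage-gated sodium channel probe sets was above background. Of 17 chloride channel probe sets 13 were tested, none called and 2 at an unadjusted p under 0.05, or 15.4%, near the 19.1% of all. Both belong to Clic4, at -0.39 and -0.38, while its other tested probe set differed by -0.14. Clcn3 differed by 0.30 (SE 0.14, adjusted p = 0.285) at one probe set and by 0.24, 0.23 and -0.03 at its others. Of 6 probe sets of Kctd genes, which share a tetramerisation domain with Kv channels but form no pores, 5 were tested, none called and none at an unadjusted p under 0.05, with Kctd20 at 0.29 and Kctd9 at 0.35.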

How the data were processed

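RNA of adrenal glands was measured on 6 Affymetrix MG_U74Av2 arrays, 3 per strain. The authors deposited linear intensities, 1 for each probe set on each array; the summarising software is not named in the sources used here. After trimming 2% at each end the means lay between 2501.3 and 2501.5, and the medians between 1003.5 and 1114.7, so no further scaling was applied. The number of arrays limits the precision.

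Values below the 20th percentile of the table (201.3) were set to it before log2, which understates changes of dim probe sets. The 66 control probe sets were left out of the test, and so were those with a mean under the 40th percentile (668.1), leaving 7510. The two-sided test was that of limma 3.58.1 (R 4.3.3; lmFit, then eBayes with trend) with Benjamini-Hochberg adjustment, and was tested on simulated data. Of the probe sets, 10855 name a single gene, 396 name more and 1237 name no gene. Of the first, 10839 matched the RefSeq table of GRCm38.p6, used for names and neighbours.

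Members and lists were chosen with earlier results of these data known. Described with every array are the 8 tested members with the smallest p, members long described in the adrenal, every gene with more than 1 probe set, and all other tested members. For the other lists up to 2 genes with the smallest p are named. The labels do not say whether replicate numbers pair the strains. Same-numbered deviations correlated at -0.211, -0.0828 and 0.0119 across probe sets, which does not settle whether a pairing existed, and none was used in the main fit. The run files name 2 fluidics stations, with BPH 1 and BPH 2 on station 2 and the rest on station 1. Station 2 held no BPL array, so strain and station are partly confounded. Intervals are at 95%.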

Additional observations from a re-analysis of the deposited data

How the results depend on the processing

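No alternative ended or turned a call of a potassium channel probe set, since none was called: the number called was 0 in every setting run except without BPL 3, where it was 1 (Kcnk2). The number called over all probe sets, 189, was 52 with no filter, 61 without the intensity trend, 124 with the replicate block, 18 with the station as a block, 5 within station 1 and 116 without the 2 arrays highest in muscle markers, an alternative chosen after seeing the data; leaving out 1 array gave 42 to 350. Fewer arrays were fitted within station 1 and where arrays were left out. Station 2 holds only BPH 1 and BPH 2. With the station as a block the strain difference therefore rests on BPH 3 against the 3 BPL arrays. Apart from that, the cause was not tested. The replicate block rests on shared numbers alone and changed no call of a potassium channel.

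The median of the tested members, -0.17, was 0.07 with the filter at the 60th percentile, which leaves 7 members, and between -0.17 and -0.05 without 1 array. Above background, 16 members became 7 at the 60th percentile and 1 at the 95th percentile of the reference genes, and 15 to 17 without 1 array. Of the 16 differences, those of Kcnk1, Kcnk2, Kcnk4, Kcnn1, Kcnn4 and the brighter Kcnq1 probe set kept their sign in all settings run. Blocked by station or in station 1 alone, which amount to the same strain difference, Kcnk7 turned to 0.14 and the dimmer Kcnq1 probe set to 0.17. Without the 2 arrays highest in muscle markers, Kcnh2 turned to -0.02, Kcnma1 to -0.05, Kcnab2 to 0.15 and Kcnj9 at its more variable probe set to 0.42. Without 1 array the ranges were -0.03 to 0.38 for Kcnj4, -0.33 to 0.04 for Kcnj8, -0.28 to 0.02 for Kcnj9 at its less variable probe set, -0.90 to 0.12 at the other, -0.46 to 0.08 for Kcnk3 and -0.08 to 0.24 for Kcnma1. Kcnn1 was not tested without BPL 3, at the 60th percentile or with a filter on the mean log2 value. Low signal limits most members, 35 of 51.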
